A study of Mus musculus with 12 samples.

Results

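DNA repair genes were examined by repair pathway in 3 groups of mouse tissue on a panel of 770 cancer pathway genes. The gene group was given as a list of 39 symbols, of which 38 are rows of the table. *Mre11a* was not analysed here. By pathway, 15 genes belong to Fanconi anemia and homologous recombination, 1 to mismatch repair, 8 to base or nucleotide excision repair, 3 to end joining and 5 to checkpoint signaling. The remaining 6 were set apart as 3 direct reversal genes and 3 factors of DNA synthesis that several pathways share.

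RNA was counted with nCounter probes, color-coded tags that are read molecule by molecule without amplification, and the values used here are the normalized signal, a linear unit after background subtraction and scaling. The 4 control eyes came from Ctnnb1(ex3)Fl/+SmoM2Fl/+ embryos at E18.5, which carry both conditional alleles and no Cre. No tamoxifen day is given in the labels of these control eyes. The 5 *RBS* lesions came from the orbits of Rax-creERT2::Ctnnb1(ex3)Fl/+SmoM2Fl/+ embryos at E18.5 after tamoxifen at E8.5, so that Cre acted in cells with an active *Rax* promoter, stabilizing beta-catenin and switching on an active form of Smo. The 3 Shh-MBs were hindbrain tumors of hGFAP-cre::SmoM2Fl/+ mice at 14 days, with active Smo alone under a promoter of neural precursors and glia. Every sample was a tumor, lesion or eye of its own animal, in fresh frozen bulk tissue, and sex was not among the labels. Tissue, age and genotype all differ between Shh-MBs and eyes, and their parts in a difference cannot be told apart. Of the marker lists for tissue identity, 0 of 14 retina and lens genes and 1 of 7 granule lineage genes (*Zic2*) are on the panel, so the eye label could not be checked with them. *Zic2* was at 924 to 1142 in the Shh-MBs, above the control eyes (223 to 347) and the *RBS* lesions (255 to 385). In bulk tissue, fewer cells that express a gene and less RNA per cell cannot be told apart.

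Cells repair DNA along several routes. Homologous recombination rebuilds broken ends from the sister copy and therefore works in S and G2 phase, and the Fanconi anemia proteins open crosslinks at stalled forks and hand them to it. End joining ligates broken ends directly and is open in all phases of the cycle, including in cells that have stopped dividing. Mismatch and excision repair remove wrong or damaged bases, while checkpoint kinases hold the cycle until the damage is dealt with. Many recombination and checkpoint genes are transcribed most strongly in dividing cells.

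Counts above background, taken as total signal divided by the step between neighbouring low values, ranged from 335392 to 716684 over the 12 samples, with *RBS* lesion 1 the shallowest. None of the 38 genes was at the lowest value of its sample in any sample. The median coefficient of variation of the 38 genes within a group was 12.02% in control eyes, 14.4% in *RBS* lesions and 10.5% in Shh-MBs. The 3 most abundant genes of the panel held 42.8% to 50.9% of the signal in control eyes, 26.9% to 29.7% in the *RBS* lesions and 50.0% to 51.8% in the Shh-MBs.

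*RBS* lesions were compared with control eyes to ask how repair genes differ in the eye once both pathways are active. Of the recombination genes 8 of 15 were lower in *RBS* lesions, as were *Msh6* and all 5 checkpoint genes, and the largest falls were those of *Brip1*, *Brca1*, *Ube2t*, *Chek1* and *Pold1*, whereas *Mad2l2* and the end-joining ligase *Lig4* were higher (as were *Polb* and *Xpa*). By limma with Benjamini-Hochberg adjustment over the 770 genes, 17 of the 38 genes were lower and 4 were higher at an adjusted *p* under 0.05, and genes past this threshold are named as called. Over the whole panel 18.2% of genes were lower and 33% were higher, while the shares of the repair genes were 44.7% and 10.5%. The median log2 difference of the 38 genes was -0.22 and that of all 770 genes was 0.17. The groups did not overlap in 14 of the 38 genes with lower and 4 with higher signal in *RBS* lesions, beside 15.8% and 27.5% of the panel. In either direction the test called 21 of the 38 genes and 51.2% of the panel, and groups without overlap were found in 18 of the 38 and 43.4% of the panel. Of the 21 calls, 19 were made with the same sign after each sample was centred on its median, where *Polb* and *Xpa* were no longer called.

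**Figure D1:**
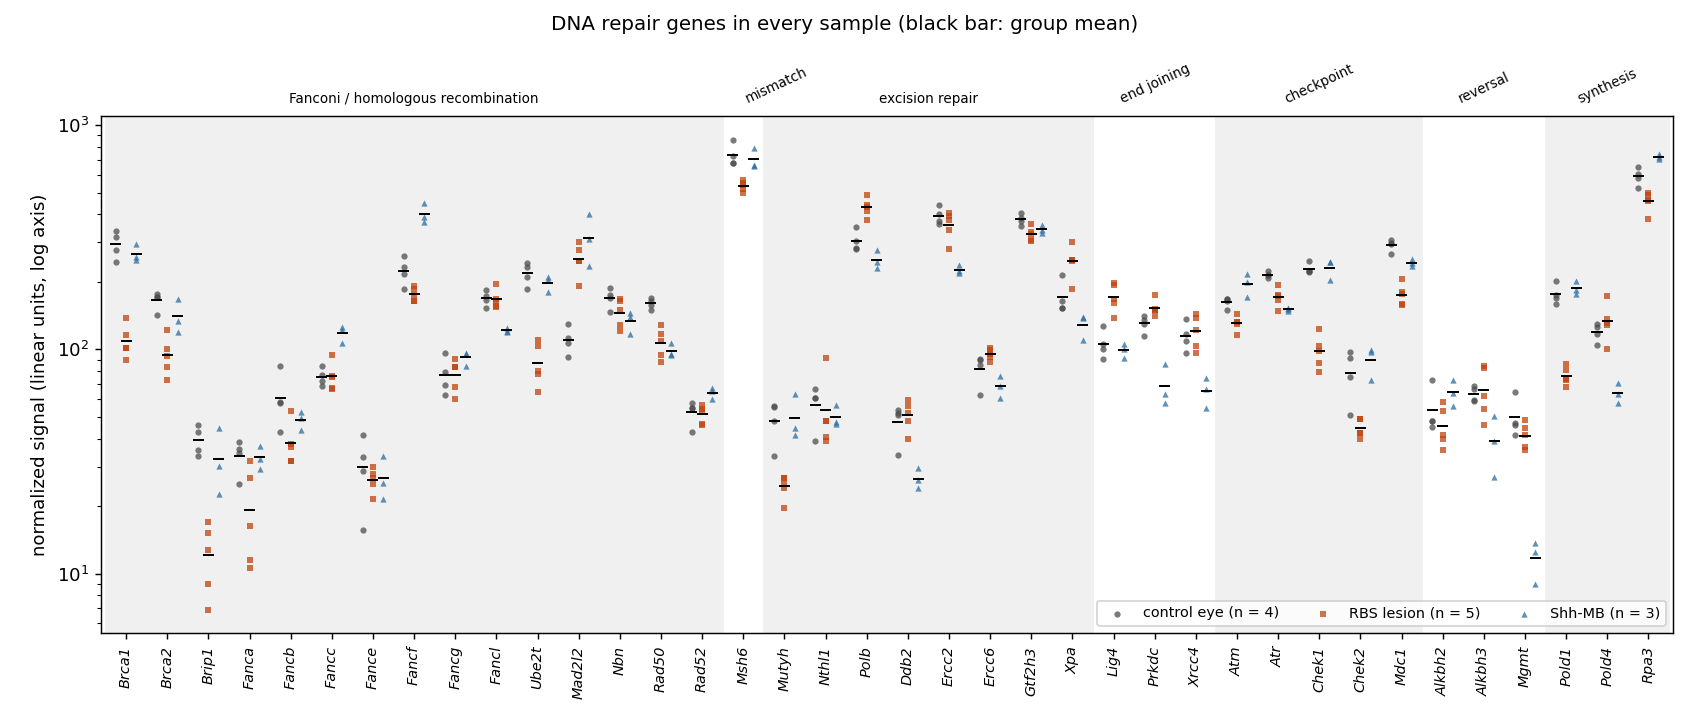
Normalized signal (vertical log axis) of the 38 genes (horizontal axis, by pathway) in each of the 4 control eyes (circles), 5 *RBS* lesions (squares) and 3 Shh-MBs (triangles), with a black bar at each group mean. All 5 *RBS* lesions lie below all control eyes in each of the 5 checkpoint genes, and all 3 Shh-MBs lie below the other samples in *Mgmt*.

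Shh-MBs were set beside the eyes as a tumor with active Smo alone. Against control eyes, 3 of the 38 genes were higher (*Mad2l2*, *Fancf* and *Fancc*) and 10 were lower, beside 9.61% and 31.4% of the panel (41% in either direction), and the median log2 difference was -0.15 against -0.22 over all genes. Against Shh-MBs, *RBS* lesions were higher in 12 genes and lower in 16, beside 48.1% and 12.7% of the panel (60.8% in either direction), with a median of -0.28 against 0.53 over all genes. The groups did not overlap in 6 genes with higher and 14 with lower signal in Shh-MBs than in the control eyes, beside 12.2% and 36% of the panel (48.2% either way), nor in 11 with higher and 14 with lower signal in *RBS* lesions than in Shh-MBs, beside 47% and 12.9% (59.9% either way). With each sample centred on its own median, the median of all genes moved from -0.22 to 0.44 for Shh-MBs against control eyes and from 0.53 to -0.32 for *RBS* lesions against Shh-MBs. Under that scaling 4 of the 13 calls against control eyes were made with the same sign, namely *Mad2l2*, *Fancf* and *Fancc* as higher and *Mgmt* as lower in Shh-MBs. Of the 28 calls between the lesion types 17 were made with the same sign, namely all 16 genes lower in *RBS* lesions and *Mgmt* as higher. Directions for Shh-MBs below refer to the deposited scaling, and the outcome after centring is given beside each call named below that it removed or reversed. Centring also added calls, only some of which are named again below. It added *Alkbh2*, *Atm*, *Chek1*, *Chek2*, *Fanca*, *Fancg*, *Gtf2h3*, *Lig4*, *Msh6*, *Mutyh*, *Nthl1*, *Pold1*, *Rad52* and *Rpa3* as higher in Shh-MBs than in the control eyes (40.4% of the panel). As lower in *RBS* lesions than in Shh-MBs (41.4% of the panel) it added *Atr*, *Fanca*, *Fancb*, *Fance*, *Fancg*, *Gtf2h3*, *Mad2l2*, *Nbn*, *Nthl1* and *Rad50*.

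**Figure D2:**
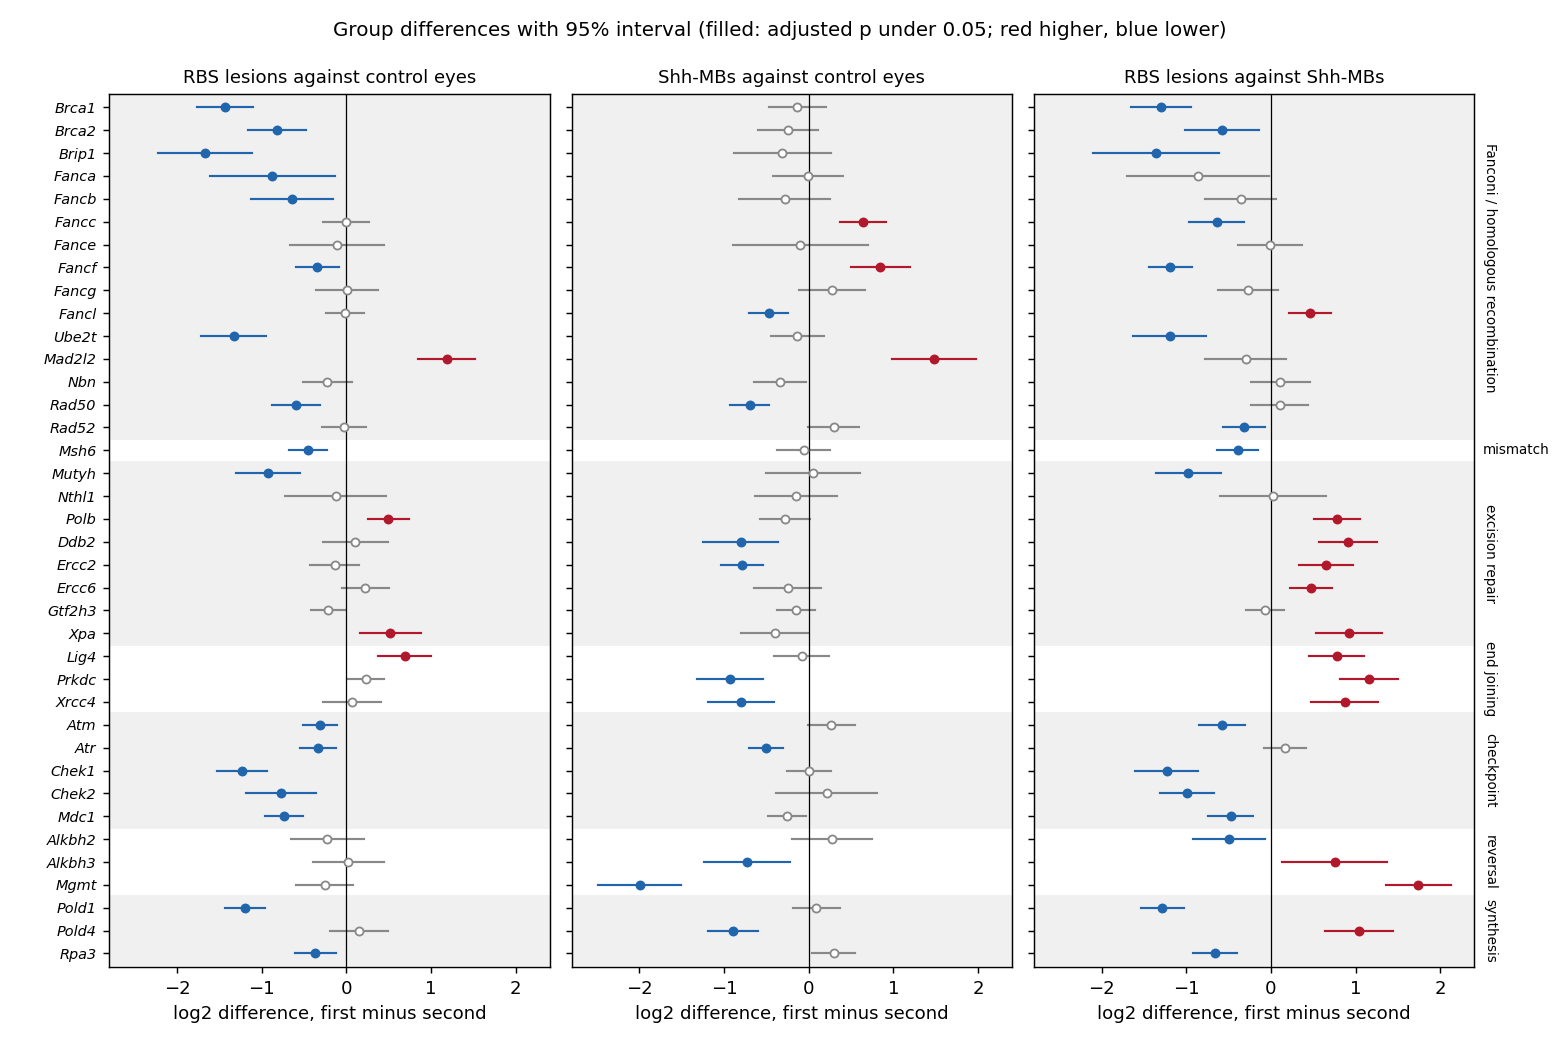
Log2 difference (horizontal axis, first group minus second) of each gene (vertical axis, by pathway) in the 3 comparisons, with its 95% interval; filled points passed an adjusted *p* of 0.05, red for higher and blue for lower. All 5 checkpoint genes are lower in *RBS* lesions than in the control eyes. The 3 end-joining genes are higher in *RBS* lesions than in Shh-MBs on the deposited scale, as is 48.1% of the panel. After each sample is centred on its median none of the 3 is called, and *Lig4* changes sign.

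Promoters were read because many recombination genes and all checkpoint genes fell in *RBS* lesions. RefSeq's promoter table (GRCm38.p6) held an entry for 33 of the 38 genes and none for *Nbn*, *Rad50*, *Polb*, *Ddb2* and *Prkdc*. The 250 bases before each start were searched on both strands for letters of the kind that E2F factors, which switch on genes for S phase, are known to bind (TTCCCGC or TTGGCGC, or TTCGCGC or TTGCCGC), and for CCAAT, the letters of the NF-Y factor. These 2 searches can share bases, since TTGGCGC read on the other strand runs into CCAAT, as happens in *Ube2t*, *Ercc2* and *Fancf*. The 5 promoters below belong to the genes with the largest falls in *RBS* lesions that hold an E2F match. Each is printed 5′ to 3′ on the plus strand, which is the strand of the gene, with the E2F letters in capitals. They lie at chr1:134962315-134962564 (*Ube2t*), chr5:150522371-150522620 (*Brca2*), chr5:110839733-110839982 (*Chek2*), chr17:35841248-35841497 (*Mdc1*) and chrX:164980342-164980591 (*Fancb*).
Ube2t: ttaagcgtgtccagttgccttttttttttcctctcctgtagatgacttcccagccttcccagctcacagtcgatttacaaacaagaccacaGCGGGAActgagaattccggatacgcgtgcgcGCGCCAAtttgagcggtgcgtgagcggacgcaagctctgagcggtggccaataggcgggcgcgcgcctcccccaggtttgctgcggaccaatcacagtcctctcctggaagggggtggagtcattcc
Brca2: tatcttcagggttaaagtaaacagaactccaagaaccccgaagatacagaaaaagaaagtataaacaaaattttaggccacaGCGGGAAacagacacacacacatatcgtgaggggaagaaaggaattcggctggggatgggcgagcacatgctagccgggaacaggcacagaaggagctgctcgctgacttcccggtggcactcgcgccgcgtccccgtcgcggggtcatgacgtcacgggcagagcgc
Chek2: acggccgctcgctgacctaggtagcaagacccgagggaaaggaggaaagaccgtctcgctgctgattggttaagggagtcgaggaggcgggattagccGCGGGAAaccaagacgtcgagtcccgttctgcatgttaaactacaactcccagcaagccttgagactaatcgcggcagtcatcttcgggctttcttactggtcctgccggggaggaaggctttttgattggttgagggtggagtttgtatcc
Mdc1: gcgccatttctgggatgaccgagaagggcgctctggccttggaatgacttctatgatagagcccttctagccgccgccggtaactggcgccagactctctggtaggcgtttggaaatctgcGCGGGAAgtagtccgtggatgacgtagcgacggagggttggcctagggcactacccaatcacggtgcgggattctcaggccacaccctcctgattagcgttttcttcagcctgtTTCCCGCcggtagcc
Fancb: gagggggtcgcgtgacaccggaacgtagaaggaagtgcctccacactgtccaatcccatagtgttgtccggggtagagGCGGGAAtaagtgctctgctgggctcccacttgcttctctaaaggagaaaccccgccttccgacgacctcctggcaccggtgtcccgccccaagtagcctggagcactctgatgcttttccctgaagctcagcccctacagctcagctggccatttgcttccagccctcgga

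E2F letters were found in 15 of the 33 genes (45.5%), beside 18.1% of the 568 panel genes with an entry and 9.01% of all 27025 genes in the table. Among genes lower in *RBS* lesions than in the control eyes 7 of 16 held them (43.8%), and among genes that were not called 6 of 14 did (42.9%). CCAAT was found in 12 of 16 lower genes and 5 of 14 genes that were not called (35.7%), and in 2 of 3 higher genes (66.7%), beside 39.3% of panel genes. *Brca1*, *Brip1*, *Chek1* and *Pold1*, which had the largest falls beside *Ube2t*, hold no such E2F letters in this window. Of the 3 genes with an entry that were higher in *RBS* lesions, *Mad2l2* and *Lig4* hold them. These matches describe letters only, and binding was not measured.

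Among the 15 genes of Fanconi anemia and homologous recombination, 8 were lower and 1 was higher in *RBS* lesions than in the control eyes, beside 18.2% and 33% of the panel, with a median log2 difference of -0.34. *Brca1*, a ubiquitin ligase that steers broken ends to recombination, had a signal of 318, 337, 279 and 246 in the control eyes, 115.3, 101, 138, 101 and 89.2 in the *RBS* lesions, and 249.97, 258 and 294 in the Shh-MBs. All 5 *RBS* lesions were below every control eye and every Shh-MB, which overlapped with each other. The log2 difference between *RBS* lesions and control eyes was -1.43 ± 0.15 (SE), adjusted *p* = 6.97e-05, or 2.70-fold lower, and it was -1.30 ± 0.15 (SE), adjusted *p* = 0.000155 against Shh-MBs. Between Shh-MBs and control eyes it was -0.13 with a 95% interval of -0.47 to 0.20, which turned to 0.53 without being called after centring.

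*Brip1*, a helicase that binds Brca1, had a signal of 33.4, 46, 35.4 and 42.8 in the control eyes, 15.2, 9.01, 12.7, 16.9 and 6.89 in the *RBS* lesions, and 22.7, 44.6 and 30.3 in the Shh-MBs. The *RBS* lesions were again below all other samples, at 7.5 to 14.4 counts above background. *Brip1* had the largest fall of the 38 genes in both comparisons (-1.67 ± 0.25 (SE), adjusted *p* = 0.00047 against control eyes; -1.36 ± 0.32 (SE), adjusted *p* = 0.00611 against Shh-MBs). *Brca2*, a mediator of homologous recombination, had a signal of 172, 176, 143 and 171 in the control eyes, 72.7, 93.2, 101, 122 and 83.7 in the *RBS* lesions, and 120.1, 134 and 168 in the Shh-MBs. Its log2 difference between *RBS* lesions and control eyes was -0.82 ± 0.15 (SE), adjusted *p* = 0.00169, with no overlap of the groups, while against Shh-MBs, where the groups overlap, it was -0.58 ± 0.19 (SE), adjusted *p* = 0.0273. The latter call was lost in 4 of 8 fits that left out a sample (*RBS* lesion 2 or 5, Shh-MB 2 or 3), with an adjusted *p* of up to 0.105.

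*Ube2t*, the conjugating enzyme that works with Fancl to mark Fancd2, had a signal of 233, 244, 211 and 185 in the control eyes, 64.5, 80.3, 111, 104 and 77.3 in the *RBS* lesions, and 179, 211 and 203 in the Shh-MBs. The highest *RBS* lesion was below the lowest of all other samples. It was 2.52-fold lower in *RBS* lesions than in the control eyes (log2 difference -1.33 ± 0.17 (SE), adjusted *p* = 0.000218) and also lower than in Shh-MBs (-1.20 ± 0.19 (SE), adjusted *p* = 0.000721). *Fancl* itself, the ligase of the core complex, did not pass the test between *RBS* lesions and control eyes (-0.012, 95% interval -0.24 to 0.21). Against Shh-MBs it was higher in *RBS* lesions (0.46 ± 0.11 (SE), adjusted *p* = 0.00554), whereas after centring it was called as lower, at -0.39 (adjusted *p* = 0.0413), the one of the 28 calls that was made with the opposite sign.

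The other core complex genes did not move as a block. *Fanca* (-0.87, adjusted *p* = 0.0492), *Fancb* (-0.64, adjusted *p* = 0.0316) and *Fancf* (-0.34, adjusted *p* = 0.0307) were lower in *RBS* lesions than in the control eyes, with groups that overlap. Each of these 3 calls was lost in at least 6 of the 9 fits that left out a sample, with adjusted *p* up to 0.115, 0.0806 and 0.0854. *Fancb* is on chromosome X, and the Y-linked *Uty* was above 100 in 2 of 5 *RBS* lesions, 1 of 4 control eyes and all 3 Shh-MBs, so that the samples were of mixed sex, whose part in the result was not tested. *Fancc*, *Fance* and *Fancg* were not called, with log2 differences of -0.0019, -0.11 and 0.0066.

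*Fancf* and *Fancc* set the Shh-MBs apart. *Fancf*, an adaptor of the core complex, had a signal of 233, 262, 185 and 218 in the control eyes, 165, 164, 191, 186 and 174 in the *RBS* lesions, and 369, 389 and 450.2 in the Shh-MBs. All 3 Shh-MBs exceeded all 9 eye samples. The log2 difference was 0.85 ± 0.15 (SE), adjusted *p* = 0.00369 between Shh-MBs and control eyes and -1.19 ± 0.11 (SE), adjusted *p* = 3.90e-05 between *RBS* lesions and Shh-MBs. *Fancc* had a signal of 68.6, 72.3, 84.3 and 77.2 in the control eyes, 76, 67.3, 66.5, 94.1 and 75.5 in the *RBS* lesions, and 122, 126 and 107 in the Shh-MBs. Here the eye groups overlapped and the Shh-MBs were above both (log2 difference 0.64 ± 0.12 (SE), adjusted *p* = 0.00436 against control eyes; *RBS* minus Shh-MB -0.64 ± 0.14 (SE), adjusted *p* = 0.00383).

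*Mad2l2* was the one gene of its group that rose in *RBS* lesions. It encodes Rev7, a subunit of translesion polymerase zeta and of shieldin, which protects broken ends from resection and so holds them for end joining. Its signal was 112, 130.1, 92.8 and 106 in the control eyes, 192, 302, 247, 247 and 278 in the *RBS* lesions, and 234, 309.7 and 402 in the Shh-MBs. All lesions and tumors were above all control eyes, and they overlapped with each other. *Mad2l2* was 2.28-fold higher in *RBS* lesions (log2 difference 1.19 ± 0.15 (SE), adjusted *p* = 0.000193) and 2.79-fold higher in Shh-MBs (1.48 ± 0.21 (SE), adjusted *p* = 0.00139) than in the control eyes. Both comparisons share the 4 control eyes. Both calls held after centring, at 1.01 and 2.15. Between *RBS* lesions and Shh-MBs the difference was -0.30 (95% interval -0.78 to 0.18), which was called at -1.14 after centring.

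Among genes that act on the ends themselves, *Rad50*, a partner of Mre11 in sensing breaks, was lower in *RBS* lesions than in the control eyes (-0.59 ± 0.12 (SE), adjusted *p* = 0.00334) without overlap, at 87.4 to 128 against 150.1 to 169. It was also lower in Shh-MBs than in the control eyes (-0.70 ± 0.10 (SE), adjusted *p* = 0.00128), a call that was lost at -0.030 after centring. *Nbn*, the other partner, had a log2 difference of -0.23 (95% interval -0.52 to 0.064) between *RBS* lesions and control eyes. *Rad52*, which anneals single strands, was not called there (-0.026), and was lower in *RBS* lesions than in Shh-MBs (-0.32 ± 0.11 (SE), adjusted *p* = 0.0327), a call lost in 5 of 8 fits that left out a sample (*RBS* lesion 2, 3 or 5, Shh-MB 1 or 2; adjusted *p* up to 0.110).

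*Msh6*, which takes part in recognizing mismatched bases, was the mismatch repair gene of the group. Its signal was 730.3, 859, 679 and 676 in the control eyes, 496, 570.0, 521, 540.1 and 551 in the *RBS* lesions, and 659.8, 665 and 793 in the Shh-MBs. All *RBS* lesions were below all other samples, and Shh-MBs overlapped with control eyes. *Msh6* was lower in *RBS* lesions than in the control eyes (log2 difference -0.45 ± 0.10 (SE), adjusted *p* = 0.00385) and than in Shh-MBs (-0.39 ± 0.10 (SE), adjusted *p* = 0.0107). For Shh-MBs against control eyes the difference was -0.059, which turned to a called 0.61 after centring.

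Of the 8 excision repair genes, 2 were higher, 1 was lower and 5 were not called in *RBS* lesions against control eyes, beside 33% higher and 18.2% lower over the panel, and the median log2 difference was -0.0092. *Polb*, the polymerase that fills the gap in base excision repair, had a signal of 283, 352, 305 and 281 in the control eyes, 376, 441, 432, 416 and 487 in the *RBS* lesions, and 278, 245 and 229.7 in the Shh-MBs. All 5 *RBS* lesions were above all other samples. It was higher in *RBS* lesions than in the control eyes (0.49 ± 0.11 (SE), adjusted *p* = 0.00398) and than in Shh-MBs (0.78 ± 0.12 (SE), adjusted *p* = 0.000583). The first call was lost after centring, at 0.31, and the second turned sign without a call, to -0.070. *Mutyh*, the glycosylase that removes adenine opposite oxidized guanine, went the other way, at 19.7 to 26.7 in *RBS* lesions, 33.4 to 55.7 in control eyes and 41.3 to 63.0 in Shh-MBs. It was lower in *RBS* lesions than in the control eyes (-0.93 ± 0.17 (SE), adjusted *p* = 0.00142) and than in Shh-MBs (-0.97 ± 0.17 (SE), adjusted *p* = 0.00117). *Nthl1*, the glycosylase for oxidized pyrimidines, was not called in any comparison on the deposited scale, and after centring it was called at 0.51 for Shh-MBs against control eyes and at -0.82 for *RBS* lesions against Shh-MBs, both with the sign turned.

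In nucleotide excision repair, *Xpa*, which verifies the lesion, had a signal of 165, 215, 153 and 153 in the control eyes, 186, 251, 249.83, 248 and 300.5 in the *RBS* lesions, and 110.0, 139 and 138 in the Shh-MBs. The lowest *RBS* lesion was within the range of control eyes, and every *RBS* lesion exceeded every Shh-MB. *Xpa* was higher in *RBS* lesions than in the control eyes (0.52 ± 0.16 (SE), adjusted *p* = 0.021), a call lost after centring (0.34) and without control eye 1, 3 or 4 (adjusted *p* up to 0.0603). Against Shh-MBs the difference was 0.92 ± 0.17 (SE), adjusted *p* = 0.00153, and 0.077 without a call after centring. *Ddb2*, the sensor of ultraviolet lesions, had a signal of 51, 33.8, 53.5 and 52.2 in the control eyes, 59.5, 39.8, 55.9, 51.9 and 48 in the *RBS* lesions, and 26, 24 and 29.5 in the Shh-MBs. The Shh-MBs were below all eyes, and the eye groups overlapped. *Ddb2* was lower in Shh-MBs than in the control eyes (-0.80 ± 0.19 (SE), adjusted *p* = 0.0135), a call lost without Shh-MB 2 (adjusted *p* = 0.0536) and after centring (-0.14), and higher in *RBS* lesions than in Shh-MBs (0.91 ± 0.15 (SE), adjusted *p* = 0.000883; 0.066 after centring, not called).

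*Ercc2*, the helicase of TFIIH, was at 219.7 to 237 in Shh-MBs, below both eye groups at 279 to 438. Its log2 difference was -0.79 ± 0.10 (SE), adjusted *p* = 0.000999 between Shh-MBs and control eyes and 0.65 ± 0.14 (SE), adjusted *p* = 0.00383 between *RBS* lesions and Shh-MBs, and after centring the first was -0.12 without a call and the second turned to -0.20, also not called. *Ercc6*, the factor that clears stalled RNA polymerase, was higher in *RBS* lesions than in Shh-MBs (0.47 ± 0.11 (SE), adjusted *p* = 0.0054), with the sign turned and no call after centring (-0.38). *Gtf2h3*, a further TFIIH subunit, was not called in any comparison on the deposited scale. After centring it was called as lower in *RBS* lesions than in the control eyes (-0.40), and as lower than in Shh-MBs (-0.92) and higher in Shh-MBs than in the control eyes (0.52).

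Of the 3 end-joining genes 1 was higher and 2 were not called in *RBS* lesions against control eyes, a share near the 33% of the panel that was higher, with a median log2 difference of 0.23, and all 3 were higher than in Shh-MBs on the deposited scale (48.1% of the panel) but none was called after centring. *Lig4*, the ligase of this route, had a signal of 100.3, 90.6, 127 and 105 in the control eyes, 161, 167, 193, 139 and 198 in the *RBS* lesions, and 106, 91.4 and 101 in the Shh-MBs. All 5 *RBS* lesions were above all other samples, and control eyes and Shh-MBs overlapped. *Lig4* was 1.62-fold higher in *RBS* lesions than in the control eyes (log2 difference 0.69 ± 0.14 (SE), adjusted *p* = 0.00267), a call that held after centring at 0.51. Against Shh-MBs it was higher by 0.78 ± 0.14 (SE), adjusted *p* = 0.0015, a sign that turned to -0.071, not called, after centring.

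*Prkdc*, the catalytic subunit of the DNA-dependent protein kinase, had a signal of 141, 130.1, 115.1 and 135 in the control eyes, 174, 149, 141, 152 and 150.5 in the *RBS* lesions, and 63, 57.7 and 86.3 in the Shh-MBs. The *RBS* lesions just cleared the control eyes, and the Shh-MBs were far below both. Between *RBS* lesions and control eyes the difference did not pass the test (0.23 ± 0.10 (SE), adjusted *p* = 0.071; 95% interval 0.016 to 0.45). It was lower in Shh-MBs than in the control eyes (-0.93 ± 0.16 (SE), adjusted *p* = 0.00393) and higher in *RBS* lesions than in Shh-MBs (1.16 ± 0.15 (SE), adjusted *p* = 0.000237). After centring these differences were -0.26 and 0.31 and were not called.

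*Xrcc4*, the partner that holds Lig4 at the break, had a signal of 117, 137, 95.9 and 109 in the control eyes, 104, 96.4, 144, 137 and 122 in the *RBS* lesions, and 74.2, 54.9 and 66.8 in the Shh-MBs. The eye groups overlapped, and all Shh-MBs were below them. Its log2 difference was 0.067 (95% interval -0.28 to 0.41) between *RBS* lesions and control eyes, -0.80 ± 0.16 (SE), adjusted *p* = 0.00734 between Shh-MBs and control eyes, and 0.87 ± 0.17 (SE), adjusted *p* = 0.00236 between *RBS* lesions and Shh-MBs. After centring both Shh-MB differences lost their call (-0.14 and 0.025).

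All 5 checkpoint genes were lower in *RBS* lesions than in the control eyes, beside 18.2% of the panel, with no overlap of the groups in any of them (15.8% of the panel) and a median log2 difference of -0.74. *Chek1*, the kinase that Atr switches on at stalled forks, had a signal of 222, 247, 224 and 224 in the control eyes, 79.2, 98.1, 123, 86.8 and 104 in the *RBS* lesions, and 203, 244 and 244 in the Shh-MBs. The *RBS* lesions reached at most 123, and no other sample was under 203. *Chek1* was 2.35-fold lower in *RBS* lesions than in the control eyes (-1.23 ± 0.13 (SE), adjusted *p* = 7.61e-05) and lower than in Shh-MBs (-1.23 ± 0.16 (SE), adjusted *p* = 0.000244). Shh-MBs and control eyes differed by 0.0023 (95% interval -0.26 to 0.26), and after centring *Chek1* was called as higher in Shh-MBs (0.67).

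*Chek2*, the kinase downstream of Atm, had a signal of 51, 75.4, 97 and 91.7 in the control eyes, 39.9, 48.7, 48.9, 42.2 and 42.6 in the *RBS* lesions, and 73, 98.9 and 97.3 in the Shh-MBs. One control eye came close to the highest *RBS* lesion, and the Shh-MBs were all above the *RBS* lesions. The differences were -0.78 ± 0.18 (SE), adjusted *p* = 0.00638 against control eyes and -0.99 ± 0.14 (SE), adjusted *p* = 0.000361 against Shh-MBs. *Mdc1*, the scaffold that gathers repair proteins on damaged chromatin, had a signal of 307, 298, 267 and 295 in the control eyes, 179, 159, 176, 205 and 158 in the *RBS* lesions, and 234, 243 and 253 in the Shh-MBs. The 3 groups were in the order control eyes, Shh-MBs, *RBS* lesions without overlap. *Mdc1* was lower in *RBS* lesions than in the control eyes (-0.74 ± 0.10 (SE), adjusted *p* = 0.000321) and than in Shh-MBs (-0.48 ± 0.11 (SE), adjusted *p* = 0.0065), whereas Shh-MBs against control eyes missed the threshold (-0.26, adjusted *p* = 0.0656, and 0.41 after centring).

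Between *RBS* lesions and control eyes, the apical kinases had the smallest differences of the 5. *Atm*, the kinase for broken ends, had a signal of 168, 165, 149 and 168 in the control eyes, 115.3, 132, 129.9, 143 and 133 in the *RBS* lesions, and 172, 200.1 and 218 in the Shh-MBs. All *RBS* lesions were below all other samples. The log2 difference was -0.31 ± 0.088 (SE), adjusted *p* = 0.016 against control eyes and -0.58 ± 0.12 (SE), adjusted *p* = 0.00272 against Shh-MBs. *Atr*, the kinase for single-stranded DNA, had a signal of 214, 215, 224 and 207 in the control eyes, 194, 173, 165, 175 and 149 in the *RBS* lesions, and 154, 149 and 152 in the Shh-MBs. Control eyes were above both other groups, which overlapped. *Atr* was lower than in the control eyes both in *RBS* lesions (-0.33 ± 0.092 (SE), adjusted *p* = 0.0138) and in Shh-MBs (-0.51 ± 0.083 (SE), adjusted *p* = 0.00283), and the latter turned to 0.16 after centring.

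Of the 3 direct reversal genes, *Mgmt* separated the Shh-MBs from the eyes. This gene, whose product takes methyl groups off guanine, had a signal of 41.6, 46, 47.1 and 64.7 in the control eyes, 41.5, 36.5, 35.6, 48.3 and 44.4 in the *RBS* lesions, and 13.7, 8.97 and 12.5 in the Shh-MBs. The Shh-MBs were far below all 9 eye samples. *Mgmt* was 3.99-fold lower in Shh-MBs than in the control eyes (-1.997 ± 0.20 (SE), adjusted *p* = 0.000306) and higher in *RBS* lesions than in Shh-MBs (1.74 ± 0.16 (SE), adjusted *p* = 4.52e-05), and both calls held after centring, at -1.33 and 0.90. Between *RBS* lesions and control eyes the difference was -0.26 (95% interval -0.59 to 0.080), and it was called at -0.44 after centring.

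*Alkbh2* and *Alkbh3*, dioxygenases that strip alkyl groups from DNA, were not called between *RBS* lesions and control eyes (-0.22 and 0.020). Their differences between *RBS* lesions and Shh-MBs were -0.50 ± 0.18 (SE), adjusted *p* = 0.0444 for *Alkbh2* and 0.75 ± 0.27 (SE), adjusted *p* = 0.039 for *Alkbh3*, with overlapping groups. Each of these calls was lost in 5 of 8 fits that left out a sample, with adjusted *p* up to 0.146 for each, and after centring *Alkbh3* turned to -0.094 without a call. *Alkbh3* was also lower in Shh-MBs than in the control eyes (-0.73 ± 0.21 (SE), adjusted *p* = 0.0315), a call lost in 6 of 7 such fits (adjusted *p* up to 0.0790) and after centring (-0.065).

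The shared synthesis factors included subunits of polymerase delta, which fills repair gaps and copies DNA. *Pold1*, its catalytic subunit, had a signal of 159, 201, 169 and 175 in the control eyes, 80.9, 73, 73.5, 85.6 and 68.2 in the *RBS* lesions, and 184, 201 and 176 in the Shh-MBs. All *RBS* lesions were below all other samples, while Shh-MBs and control eyes overlapped. *Pold1* was 2.29-fold lower in *RBS* lesions than in the control eyes (-1.20 ± 0.10 (SE), adjusted *p* = 2.46e-05) and lower than in Shh-MBs (-1.29 ± 0.11 (SE), adjusted *p* = 2.89e-05). *Pold4*, its small accessory subunit, had a signal of 126, 117, 104 and 129 in the control eyes, 101, 137, 129, 174 and 131 in the *RBS* lesions, and 63, 57.7 and 71 in the Shh-MBs. There the eye groups overlapped (0.15, 95% interval -0.19 to 0.50) and the Shh-MBs were below both. It was lower in Shh-MBs than in the control eyes (-0.89 ± 0.12 (SE), adjusted *p* = 0.00128) and higher in *RBS* lesions than in Shh-MBs (1.04 ± 0.17 (SE), adjusted *p* = 0.000984), and both calls were lost after centring (-0.22 and 0.20). *Rpa3*, the small subunit of the single-strand binding protein, was lower in *RBS* lesions than in the control eyes (-0.37 ± 0.11 (SE), adjusted *p* = 0.0176), a call lost without control eye 3 (adjusted *p* = 0.0538), and lower than in Shh-MBs (-0.66 ± 0.11 (SE), adjusted *p* = 0.00105).

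Ratios of genes within a sample do not depend on how samples were scaled. They were chosen after the values had been seen and are given as a description, and since probes differ in efficiency only their change between samples can be read. The ratio of *Pold1* to *Pold4* was 1.26 to 1.72 in control eyes, 0.493 to 0.804 in the *RBS* lesions and 2.48 to 3.48 in the Shh-MBs, so that the 3 groups were separate. *Chek1* over *Prkdc* was 1.57 to 1.95 in control eyes, 0.454 to 0.869 in the *RBS* lesions and 2.83 to 4.23 in the Shh-MBs, likewise separate. *Brca1* over *Lig4* was 2.20 to 3.72 in control eyes and 2.37 to 2.92 in Shh-MBs, which overlapped, and 0.450 to 0.731 in *RBS* lesions. *Mad2l2* over *Brca1* was 0.333 to 0.432 in control eyes, 0.937 to 1.37 in Shh-MBs and 1.67 to 3.11 in *RBS* lesions. *Alkbh2* over *Alkbh3* overlapped between the eye groups, at 0.725 to 1.07 in control eyes and 0.483 to 1.26 in *RBS* lesions, and was 1.27 to 2.70 in Shh-MBs.

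**Figure D3:**
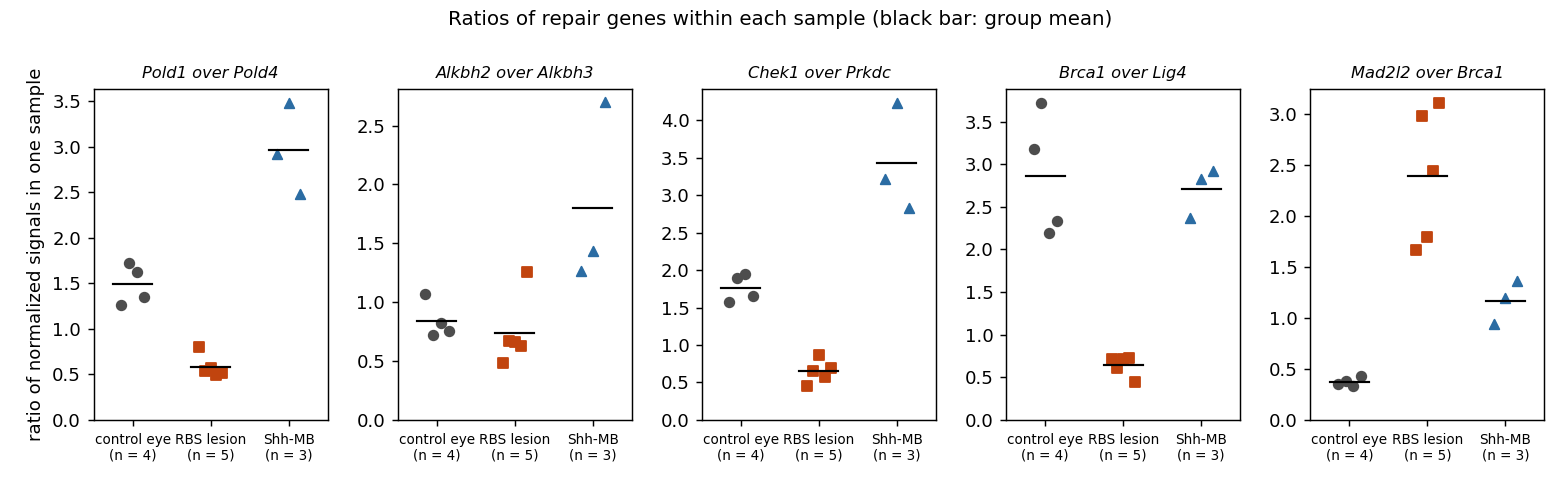
Ratio of the normalized signals of 2 repair genes in each sample (vertical axes, linear from 0) for the control eyes (circles), *RBS* lesions (squares) and Shh-MBs (triangles), with a black bar at each group mean. *Pold1* over *Pold4* is 0.493 to 0.804 in *RBS* lesions, 1.26 to 1.72 in control eyes and 2.48 to 3.48 in Shh-MBs.

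Most genes listed for DNA replication and cell division were also lower in the *RBS* lesions. Of 34 such genes 19 are on the panel, and in *RBS* lesions against control eyes 15 were lower and 0 were higher, beside 18.2% and 33% of the panel, with a median log2 difference of -1.10 against -0.22 for the 38 repair genes. The largest differences were those of *E2f1*, an activator of S phase genes (-2.004 ± 0.18 (SE), adjusted *p* = 3.44e-05), *Cdc6*, which loads the replicative helicase (-1.94 ± 0.37 (SE), adjusted *p* = 0.00215), and *Ttk*, a kinase of the spindle checkpoint (-1.47 ± 0.13 (SE), adjusted *p* = 3.44e-05). *Cdc6* had low signals, at 3.75 to 18.9 in the *RBS* lesions against 37.5 to 51.0 in the control eyes. The summed signal of the 19 genes was 13652 to 16797 in control eyes, 6408 to 7733 in the *RBS* lesions and 15679 to 17436 in the Shh-MBs. Against control eyes, 2 of the 19 genes were higher (*Rfc4* and *Ccne2*) and 2 were lower (*Cdc6* and *Top2a*) in Shh-MBs, beside 9.61% and 31.4% of the panel, and after centring 14 were higher and 0 were lower (40.4% and 18.1% of the panel), with *Cdc6* at 0.11 and *Top2a* at 0.23 without a call. *RBS* lesions were lower than Shh-MBs in 14 and higher in 0, beside 12.7% and 48.1% of the panel, and after centring lower in all 19, beside 41.4%. None of the 19 was at the lowest value in all samples of a group.

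The 17 repair genes that were lower in *RBS* lesions than in the control eyes were then divided by this summed signal in each sample, a step added after the data were seen. *Brca1* alone was still below the range of control eyes, at 1.39% to 1.78% of the summed signal in the *RBS* lesions and 1.80% to 2.16% in the control eyes, and the Shh-MBs were also below that range, at 1.48% to 1.75%. The groups overlapped in 9 genes, among them *Chek1* (1.05% to 1.62% against 1.45% to 1.64%), *Ube2t* (0.856% to 1.62% against 1.36% to 1.58%) and *Pold1* (0.951% to 1.34% against 1.08% to 1.28%). *Brip1* was also among the 9, at 0.107% to 0.264% against 0.226% to 0.313%. Of its *RBS* lesions only lesion 4 was within the range of control eyes, and the others were below it. In the remaining 7 the *RBS* lesions were above the control eyes, namely *Fancf*, *Rad50*, *Msh6*, *Atm*, *Atr*, *Mdc1* and *Rpa3*. The summed signal was itself lower in *RBS* lesions, so a gene that fell less than the sum comes out higher relative to it. What share of the panel would be above the control eyes on this measure was not computed. *Pcna*, *Top2a*, *Ccna2*, *Mcm7* and *Mcm4* had the largest signals in the sum. For *Msh6* the values were 6.58% to 8.59% in the *RBS* lesions and 4.39% to 5.11% in the control eyes. *Mad2l2*, which rose, was at 2.56% to 4.36% in the *RBS* lesions and 0.599% to 0.779% in the control eyes.

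Other repair and damage-response genes were counted from a list of 64, of which 23 are on the panel. In *RBS* lesions 13 were lower and 2 were higher (*Gadd45g* and *Ercc4*) than in the control eyes, beside 18.2% and 33% of the panel, with a median log2 difference of -0.38. The largest differences were a fall of *Gadd45a*, a p53 target induced by stress (-1.81 ± 0.12 (SE), adjusted *p* = 5.14e-06), a fall of *Cdc25c*, the phosphatase that Chek1 restrains (-1.55 ± 0.16 (SE), adjusted *p* = 7.59e-05), and a rise of *Gadd45g* (1.36 ± 0.11 (SE), adjusted *p* = 1.84e-05). *Gadd45a* was at 803 to 1018 in control eyes, 230.3 to 302 in the *RBS* lesions and 212 to 287 in the Shh-MBs, and its difference between *RBS* lesions and Shh-MBs was -0.011 on the deposited scale and a called -0.86 after centring. In Shh-MBs 7 of the 23 genes were lower than in the control eyes and 2 were higher (*Rfc4* and *Trp53*), close to the 31.4% and 9.61% of the panel, and after centring 1 was lower (*Gadd45a*) and 12 were higher, beside 18.1% and 40.4%. Between *RBS* lesions and Shh-MBs 7 were higher and 10 lower, beside 48.1% and 12.7% of the panel, and after centring 0 were higher and 17 lower, beside 23.5% and 41.4%. *Pcna*, *Pole2*, *Rfc3* and *Rfc4* are in both lists.

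Markers of other cell types also differed between the groups, and their part in the differences of repair genes was not tested. Of 12 neuron markers 6 are on the panel, and 5 were higher in *RBS* lesions than in the control eyes (33% of the panel), with a summed signal of 679 to 825 in control eyes, 2421 to 3189 in the *RBS* lesions and 695 to 972 in the Shh-MBs. *Mapt* held most of that sum in the eyes, and in Shh-MBs it was lower than in the control eyes (239.8 to 368 against 522 to 653; not called after centring), whereas *Grin1*, *Grin2b*, *Gria3* and *Cacna1e* were higher on both scales. Mesenchyme markers (7 of 9 on the panel) summed to 25546 to 57829 in control eyes, 19843 to 36410 in the *RBS* lesions and 1475 to 2099 in the Shh-MBs, where 6 were lower than in the control eyes and *Pdgfra* was higher (769.5 to 1101 against 233 to 514), all on both scales. In *RBS* lesions against control eyes *Col1a1* (-0.90) and *Col1a2* (-0.91) of these 7 were lower, and 4 were lower after centring. Surface epithelium markers (5 of 7) summed to 233 to 400.4 in control eyes, 479.8 to 793 in the *RBS* lesions and 9.70 to 22.1 in the Shh-MBs, where *Itga2* and *Calml3* were at the lowest value in all 3 samples. Blood and immune markers (3 of 10) summed to 80.8 to 113 in control eyes, 160 to 216 in the *RBS* lesions and 103 to 219 in the Shh-MBs. Vessel markers (2 of 6) summed to 1683 to 2163 in control eyes, 622 to 858 in the *RBS* lesions and 93.8 to 196 in the Shh-MBs. Most of this sum was *Kdr*, which was lower in *RBS* lesions, while *Flt1* was not called there (37.4 to 94.1 against 40.7 to 82.7 in the control eyes).

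Over the 38 genes, the group means were in the order control eyes, Shh-MBs, *RBS* lesions in 10, and Shh-MBs, control eyes, *RBS* lesions in 9. *RBS* lesions were highest and Shh-MBs lowest in 9, control eyes highest and Shh-MBs lowest in 7, and Shh-MBs highest with control eyes lowest in 3. On the deposited scale the end-joining genes were among those with *RBS* lesions highest, and after centring the levels of Shh-MBs moved up by a like amount in every gene, as the plot of both scalings shows.

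**Figure D4:**
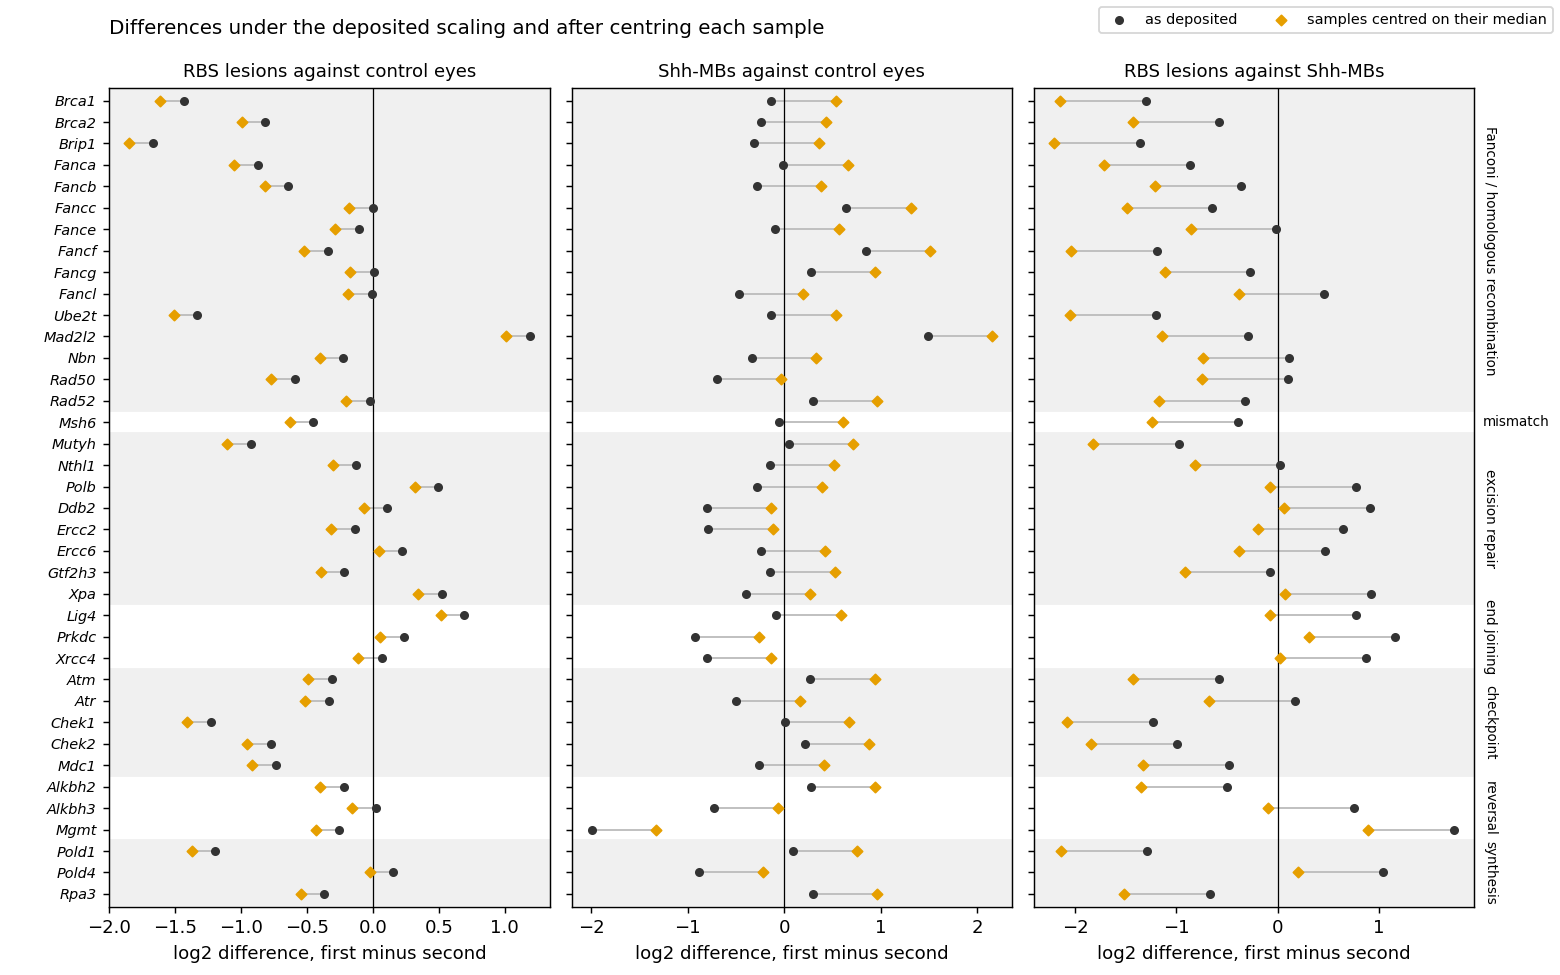
Log2 difference (horizontal axis, first group minus second) of each gene (vertical axis, by pathway) on the deposited scale (circles) and after each sample was centred on its median (diamonds). Against control eyes, *Mad2l2*, *Fancf*, *Fancc* and *Mgmt* are called with the same sign on both scales in Shh-MBs, while 18 of the 38 genes change sign.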

How the data were processed

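RNA of 3 Shh-MBs, 5 *RBS* lesions and 4 control eyes was hybridized to the nCounter Mouse PanCancer pathways panel. The deposited signal had been compiled and normalized by the authors with nSolver and its Advanced Analysis module. It is linear, background-subtracted, with a floor and one scale factor per sample. The background setting and reference genes are not given in the sources used here. Whole counts could not be recovered, and the total divided by the step between low values served as depth.

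Log2 of the signal plus 1 was compared with limma 3.58.1 in R 4.3.3 (lmFit, eBayes, only both groups of a comparison, two-sided, Benjamini-Hochberg over 770 genes, threshold 0.05). Fold changes are on this scale and understate those of low genes. SE and 95% intervals come from this fit. Litters are not given, and group sizes limit precision.

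The members, lists and tests were chosen with earlier results of these data known. Direct reversal and shared synthesis were set as groups for members outside the named pathways. Named per sample were the 5 largest rises and 5 largest falls per comparison among called genes without overlap, the end-joining and checkpoint genes, *Msh6* and *Mgmt*. Of the other lists, the 3 largest called differences are given. *Brca2* was added for its promoter, and genes in counts of 5 or fewer after their values were seen.

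Alternatives were a pseudocount of 5, genes with a mean under log2 of 20 left out, values under 20 set to 20, centring on the sample median, all 12 samples in one fit, trend and robust settings, the methods' test, a replicate block and leaving out each sample. The methods' test was run as a Welch t-test without the permutations that the methods name. The fit was tested on simulated data with 200 of 770 genes changed by 1 on the log2 scale, and recovered 81.0% (*RBS* lesions against control eyes), 68.5% (Shh-MBs against control eyes) and 72.5% (*RBS* lesions against Shh-MBs) of them, and 6.90%, 2.14% and 3.97% of the calls were false. Figures were drawn with matplotlib 3.10.9.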

Additional observations from a re-analysis of the deposited data

Results flagged for a closer look

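In 7 of 76 sets of 4 or 5 samples, the highest or lowest sample stood apart from the rest by Dixon's test, which chance alone does in about 1 in 20 sets. Control eye 3 was lowest in *Brca2*, at 142.678 against 170.9 to 176 in the other control eyes. Control eye 2 was lowest in *Nthl1* (38.879 against 60.5 to 66.2) and in *Ddb2* (33.811 against 51.0 to 53.5) and highest in *Chek1* (246.669 against 222 to 224). Control eye 1 was lowest in *Ercc6* (62.719 against 85.3 to 90.7) and highest in *Alkbh2* (73.278 against 44.9 to 48.1). *RBS* lesion 4 was highest in *Nthl1*, at 91.66 against 39.2 to 48.1 in the other *RBS* lesions. Of these genes *Brca2* and *Chek1* were called in *RBS* lesions against control eyes, and both calls held with every sample left out in turn.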

How the results depend on the processing

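Centring each sample on its median turned the sign of 5, 18 and 10 genes in the 3 comparisons. For *RBS* lesions against control eyes these log2 differences became -0.17 (*Fancg*), -0.072 (*Ddb2*), -0.11 (*Xrcc4*), -0.16 (*Alkbh3*) and -0.025 (*Pold4*). For Shh-MBs against control eyes these log2 differences became 0.53 (*Brca1*), 0.43 (*Brca2*), 0.36 (*Brip1*), 0.65 (*Fanca*), 0.38 (*Fancb*), 0.57 (*Fance*), 0.19 (*Fancl*), 0.53 (*Ube2t*), 0.33 (*Nbn*), 0.61 (*Msh6*), 0.51 (*Nthl1*), 0.39 (*Polb*), 0.42 (*Ercc6*), 0.52 (*Gtf2h3*), 0.26 (*Xpa*), 0.58 (*Lig4*), 0.16 (*Atr*) and 0.41 (*Mdc1*). For *RBS* lesions against Shh-MBs these log2 differences became -0.39 (*Fancl*), -0.73 (*Nbn*), -0.74 (*Rad50*), -0.82 (*Nthl1*), -0.070 (*Polb*), -0.20 (*Ercc2*), -0.38 (*Ercc6*), -0.071 (*Lig4*), -0.68 (*Atr*) and -0.094 (*Alkbh3*). The calls became 2 higher and 19 lower for *RBS* lesions against control eyes, 17 higher and 1 lower for Shh-MBs against control eyes and 1 higher and 27 lower for *RBS* lesions against Shh-MBs, with medians of -0.40, 0.52 and -1.13. Over the panel under that scaling 23% were higher and 23% lower, 40.4% and 18.1%, and 23.5% and 41.4%. The methods' test with step-down Bonferroni adjustment called 0 higher and 3 lower for *RBS* lesions against control eyes, 0 higher and 1 lower for Shh-MBs against control eyes and 0 higher and 2 lower for *RBS* lesions against Shh-MBs. These were *Brca1*, *Mdc1* and *Pold1*, then *Atr*, then *Brca1* and *Pold1*. Over the panel that adjustment called 5.32% higher and 4.03% lower, 0.909% and 3.77%, and 7.27% and 3.12%. The count falls with the stricter adjustment, since the same *p*-values adjusted by Benjamini-Hochberg called 18, 12 and 24 of the 38 genes. With Benjamini-Hochberg the panel shares were 28.4% higher and 16.6% lower, 6.88% and 21.3%, and 37.7% and 11.7%. Replicate numbers did not pair the samples, as same-numbered samples deviated together with correlations from -0.15 to 0.19, and each sample is its own animal. With the number as a block, 3 higher and 11 lower genes were called for *RBS* lesions against control eyes, 1 higher and 6 lower genes were called for Shh-MBs against control eyes and 11 higher and 14 lower genes were called for *RBS* lesions against Shh-MBs. Over the panel the block fit called 24.9% higher and 14.2% lower, 6.62% and 23.2%, and 41.9% and 10.9%. In the block fit the median for Shh-MBs against control eyes was -0.21, and signs turned for genes near 0, namely *Rad52* (0.0097, *RBS* lesions against control eyes), *Mutyh* (-0.11, Shh-MBs against control eyes), *Chek1* (-0.0085, Shh-MBs against control eyes), *Fance* (0.067, *RBS* lesions against Shh-MBs) and *Nthl1* (-0.15, *RBS* lesions against Shh-MBs). Leaving out each sample in turn changed the sign only of genes near 0 that were not called, and their log2 differences ranged for *RBS* lesions against control eyes *Alkbh3* -0.078 to 0.14, *Fancc* -0.081 to 0.051, *Fancg* -0.084 to 0.12, *Rad52* -0.12 to 0.021, *Fancl* -0.068 to 0.027, *Fance* -0.38 to 0.072, *Ddb2* -0.045 to 0.19 and *Xrcc4* -0.014 to 0.16; for Shh-MBs against control eyes *Fanca* -0.14 to 0.065, *Fance* -0.37 to 0.084, *Mutyh* -0.13 to 0.17, *Chek1* -0.042 to 0.091, *Msh6* -0.15 to 0.018 and *Lig4* -0.15 to 0.0076; for *RBS* lesions against Shh-MBs *Nthl1* -0.18 to 0.12 and *Fance* -0.15 to 0.15. The median for Shh-MBs against control eyes ranged from -0.21 to -0.13. Of the calls, 16 of 21, 11 of 13 and 24 of 28 held with every sample left out in turn. A pseudocount of 5, both treatments of low values, all 12 samples in one fit, and trend and robust settings changed no sign of the genes in the fit and kept 20 to 21, 13, and 26 to 28 of these calls. All 38 genes were in these fits, except that 37 were left for *RBS* lesions against Shh-MBs without genes of a low mean. Low signals set the depth limit: *Brip1* rests on 7.5 to 14.4 counts above background in *RBS* lesions and *Mgmt* on 9.6 to 14.8 in Shh-MBs.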
